A study of Gallus gallus with 16 samples.

Results

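The ion and water transport genes are the sodium pump and calcium pumps, cation-chloride cotransporters, sodium/proton exchangers, bicarbonate transporters, carbonic anhydrases, chloride channels, aquaporins and WNK kinases of the chick posterior eye. They were chosen by gene symbol, from name families such as ATP1A, SLC12A, SLC4A, CLCN, ANO and AQP, and then by a count filter. The symbol pattern uses no measured value, but the filter does, and the set was chosen with earlier results of these data known. Of 88 genes in the count table with a matching symbol, 67 had at least 10 counts in at least 4 of the 16 libraries and are the members described here, out of 11334 genes that passed the same filter and 17108 in the table. Of the matching genes, 21 stayed below the filter, and 1 further matching gene was left out by the choice of set and is not reported here. Just inside the filter were BEST3, SLC4A1 and SLC9A3, each with 10 or more counts in 5 libraries, and the nearest below it was ATP1B4 with such a count in 1 library.

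RNA-seq was done on the combined retina, RPE and choroid of the right eye of 16 male Leghorn/New Hampshire chicks, 4 in each of 4 groups. No-Lens controls were raised without any device. The form-deprived (FDMR) chicks all wore a translucent occluder over the right eye for 7 days, which makes the eye grow long and myopic. They were collected at removal (FDMR 0 h) or 6 h or 24 h later (FDMR 6 h and FDMR 24 h), and the 24 h included a dark night. The 4 chicks of a group were picked by the authors for similar axial length. The 6 h chicks were collected later in the light cycle than the 0 h chicks and the controls. Recovery at 6 h and the hour of collection thus cannot be told apart against either group. The 24 h chicks were collected at about the same hour as the 0 h chicks and the controls, after a night and at a greater age. At 24 h against 0 h or the control, recovery, the night and age cannot be told apart. At 24 h against 6 h, recovery, the hour of collection, the night and age cannot be told apart. The age tag of the samples reads post-hatch day 20, or day 21 for the 24 h chicks, while the written protocol places collection at a younger age. As each library is bulk tissue, fewer cells of a type and less RNA per cell cannot be told apart.

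Ion pumps and channels set the fluid balance of the back of the eye. The sodium pump of the retina and the pigment epithelium (RPE) builds the gradients that cotransporters, exchangers and chloride channels then spend, and chloride moved across the RPE draws water out of the subretinal space towards the choroid. Carbonic anhydrases and bicarbonate transporters clear the acid made by photoreceptors, and aquaporins give water a path through Mueller glia and vessels.

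Counts on genes per chick lay between 1553717 (FDMR 24 h chick 29) and 4816425 (FDMR 0 h chick 13). Members averaged 6.5 counts per chick (SLC4A1) to 6477 counts per chick (CA2, the abundant cytosolic carbonic anhydrase), with a median of 281 counts. 47 of the 67 averaged at least 100 counts, and 4 averaged under 10. The SD of log2 CPM (counts scaled to a common library size) between chicks of a group had a median of 0.179 over the members and 0.199 over all genes tested. Chicks 3 (control), 9 (0 h) and 26 (24 h) stood apart from the rest of their groups along the main axis of differences within groups, which held 39.5% of that variance. Chick 23 (6 h) stood apart as far in the opposite direction, with a gap of 0.39 to its nearest neighbour, against 0.373 for chick 9. Results that depend on these chicks are given with and without them.

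After prolonged occlusion no member passed the test. At FDMR 0 h against No-Lens control, 0 of 67 members were called at a false discovery rate (FDR) of 5% in edgeR's quasi-likelihood test, beside 3 of 11334 genes tested (0.0265%). 4 members (ANO2, CA2, CLCN5 and SLC9A3) had an unadjusted p under 0.05, a share of 5.97% beside 4.01% of all genes, and 0 members were called with limma-voom, with DESeq2 or with a likelihood ratio test in edgeR. The median log2 fold change of the members was -0.02, beside 0.00 for all genes, and the 95% interval of the change stayed within 0.5 on the log2 scale for 42 of 67 members (62.7%, beside 62.0% of all genes). The fitted changes ran from -1.25 (SLC9A3) to 0.62 (CA14). In 3 members the chicks of the groups did not overlap, all lower at 0 h, namely CLCN5, SLC12A7 and SLC9A3 (4.48%, beside 2.74% of all genes without overlap in either direction and 1.69% lower). SLC9A3 passed the count filter only through the 4 controls and 1 of the 6 h chicks. The filter thus favoured a lower SLC9A3 level at 0 h, and its place in these counts carries no weight.

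After 6 h of vision 2 members changed. ANO4, an anoctamin, rose and SLC4A11, a transporter of the bicarbonate transporter family, fell, both against 0 h and against No-Lens control. These 2 of 67 calls against 0 h (2.99%) stand beside 362 of 11334 genes tested (3.19%), and the same number against the control (2.99%) beside 310 genes (2.74%). Both comparisons use the same 6 h chicks, which were collected at a later hour than either other group. The median log2 fold change against 0 h was -0.02 over the members and 0.00 over all genes, and in 9 of 67 members the 6 h and 0 h chicks did not overlap (13.4%, beside 8.55% of all genes). Against the control 9 did not overlap either (13.4%, beside 6.74%).

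At 24 h the pairwise calls fell on other members. ANO4 and SLC4A11 still differed from 0 h in the same direction as at 6 h, without a call. A change of different members was thus not shown. AQP9, an aquaglyceroporin, rose against 6 h, and SLC9A3, a sodium/proton exchanger with few counts, fell against every other group. SLC9A3 passed the count filter only through the 4 controls, the group where it was high, and 1 of the 6 h chicks. Its calls and its place in the counts above and below carry that limit. At 24 h against 6 h 2 of 67 members were called (2.99%), beside 220 genes (1.94%); against 0 h 1 member was called (1.49%), beside 127 genes (1.12%); and against the control 1 member (1.49%), beside 151 genes (1.33%). The joint test over 0 h, 6 h and 24 h called ANO4, AQP9 and SLC9A3, 3 of 67 members (4.48%), beside 420 genes (3.71%). Members without overlap between the groups numbered 10 at 24 h against 6 h (14.9%, beside 7.75% of all genes), 10 against 0 h (14.9%, beside 6.31%) and 4 against the control (5.97%, beside 6.29%).

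**Figure D1:**
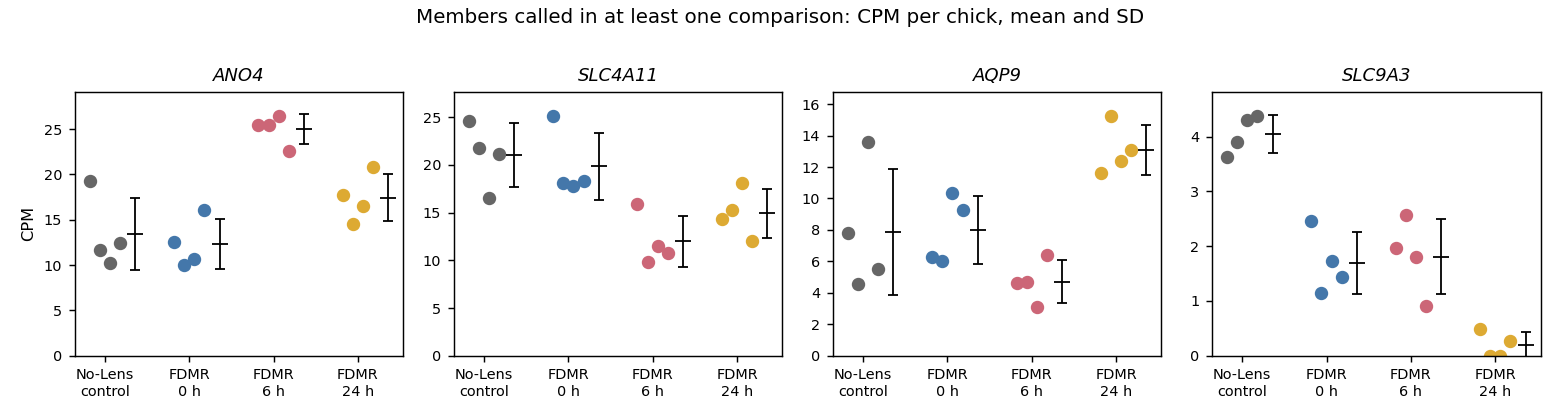
CPM (linear axes from 0) of ANO4, SLC4A11, AQP9 and SLC9A3 in each chick of the No-Lens control, FDMR 0 h, FDMR 6 h and FDMR 24 h groups; black marks give the mean and the SD (n = 4). The 6 h chicks of ANO4 lie between 22.6 and 26.5 CPM, above every other chick, and the 24 h chicks of SLC9A3 lie below all others, at 0.494 CPM or less.

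Markers of some cell types moved over the same intervals. Summed over the 8 photoreceptor markers in the table, of 10 listed, the level was 8336 to 8879 CPM in 0 h chicks, 6039 to 6669 CPM in 6 h chicks and 8128 to 9470.4 CPM in 24 h chicks. Pigment epithelium markers (12 of 13 in the table, summed without the member BEST1) reached 2602 to 2725 CPM at 0 h, 2379 to 2805 CPM at 6 h and 2969 to 3378 CPM at 24 h. Mueller glia markers (7 of 9, summed without the members AQP4 and CA2) reached 3328 to 3765 CPM at 0 h, 3111 to 3596 CPM at 6 h and 3723 to 4039.7 CPM at 24 h. RLBP1 stands on both the pigment epithelium and the Mueller glia list. Controls had 7419 to 9542 CPM for photoreceptor, 2254 to 2740 CPM for pigment epithelium and 2772.5 to 3776 CPM for Mueller glia markers. Photoreceptor sums were thus lowest at 6 h and pigment epithelium sums highest at 24 h, each without overlap. The Mueller glia sums at 24 h lay above those at 6 h and overlapped those at 0 h and in controls. Endothelial markers (8 of 9) summed to 568 to 693 CPM at 0 h, 551 to 698 CPM at 6 h and 483 to 572 CPM at 24 h, and smooth muscle markers (5 of 7) to 851 to 1019.5 CPM, 677 to 877 CPM and 635 to 752 CPM at the same times. Striated muscle markers (13 of 19) summed to 258 to 275 CPM at 0 h, 295 to 363 CPM at 6 h and 298 to 332 CPM at 24 h. Control sums were 604 to 746 CPM for endothelial, 726 to 906 CPM for smooth muscle and 277 to 301 CPM for striated muscle markers. Red blood cell markers (9 of 18) summed to at most 29.2 CPM, but their median sum was higher at 6 h and 24 h. It was 9.26 CPM in controls, 8.80 CPM at 0 h, 16.6 CPM at 6 h and 19.4 CPM at 24 h, with ranges that overlapped. HBG1, HBE and HBZ were at 0, while no marker of the other lists named here was at 0 in all chicks. Listed markers missing from the table are not in this sum, so its low level does not show that little blood was present. The part of these shifts in the changes of the members was not tested.

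The sodium pump was represented by 4 members, none of them called in any comparison. ATP1B1, a beta subunit that brings the pump to the membrane, had 140.5, 208, 145 and 141 CPM at 24 h, against 128, 127, 111 and 149 CPM at 0 h, which overlap. ATP1B3, another beta subunit, differed by -0.16 ± 0.07 (SE, log2) at 24 h against 0 h, with an adjusted p of 0.475 in edgeR's quasi-likelihood test. FXYD6, a small subunit that tunes the pump, is taken up with the chicks that stood apart.

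Of the 7 calcium pumps, which return calcium to stores or out of the cell, none was called in any comparison. At 6 h against 0 h their log2 fold changes ran from -0.50 (ATP2C2, a Golgi pump with few counts) to 0.02 (ATP2B2). ATP2B1, a plasma membrane calcium pump, averaged 909 ± 90.4 CPM in controls, 881 ± 26.3 CPM at 0 h, 882 ± 49.0 CPM at 6 h and 862 ± 52.3 CPM at 24 h (SD, n = 4 each). Its 95% interval at 6 h against 0 h was -0.15 to 0.15 on the log2 scale, and that of ATP2B2, the plasma membrane pump of neurons, -0.16 to 0.19.

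Among the 8 cation-chloride cotransporters and WNK kinases, which sense and set cell chloride and volume, 0 were called. SLC12A2 (NKCC1), the sodium-potassium-chloride cotransporter that loads cells with chloride, had 80.0, 78.7, 83.0 and 79.5 CPM in 6 h chicks, against 72.1, 75.5, 59.2 and 63.3 CPM in 0 h chicks. Every 6 h chick was above every 0 h and every control chick, and the log2 difference from 0 h was 0.25 ± 0.09 (SE), but its adjusted p in edgeR's quasi-likelihood test was 0.213. WNK1, the broadly expressed kinase that switches these cotransporters, differed by 0.03 ± 0.08 (SE, log2) at 6 h and by 0.04 ± 0.08 at 24 h against 0 h.

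WNK2, a WNK kinase found mainly in neural tissue and named here after its values were seen, dipped in 6 h chicks without reaching the threshold. It had 513, 621, 521 and 495 CPM at 0 h, 418, 449, 473 and 463 CPM at 6 h, and 522, 597, 538 and 533 CPM at 24 h. All 6 h chicks were lower than every other chick of the series, controls included (485 to 576 CPM). The log2 differences were -0.25 at 6 h against 0 h, -0.26 at 6 h against the control and 0.28 at 24 h against 6 h, with adjusted p of 0.0933, 0.0998 and 0.0757 in edgeR's quasi-likelihood test and 0.0374, 0.0389 and 0.0180 in DESeq2.

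**Figure D2:**
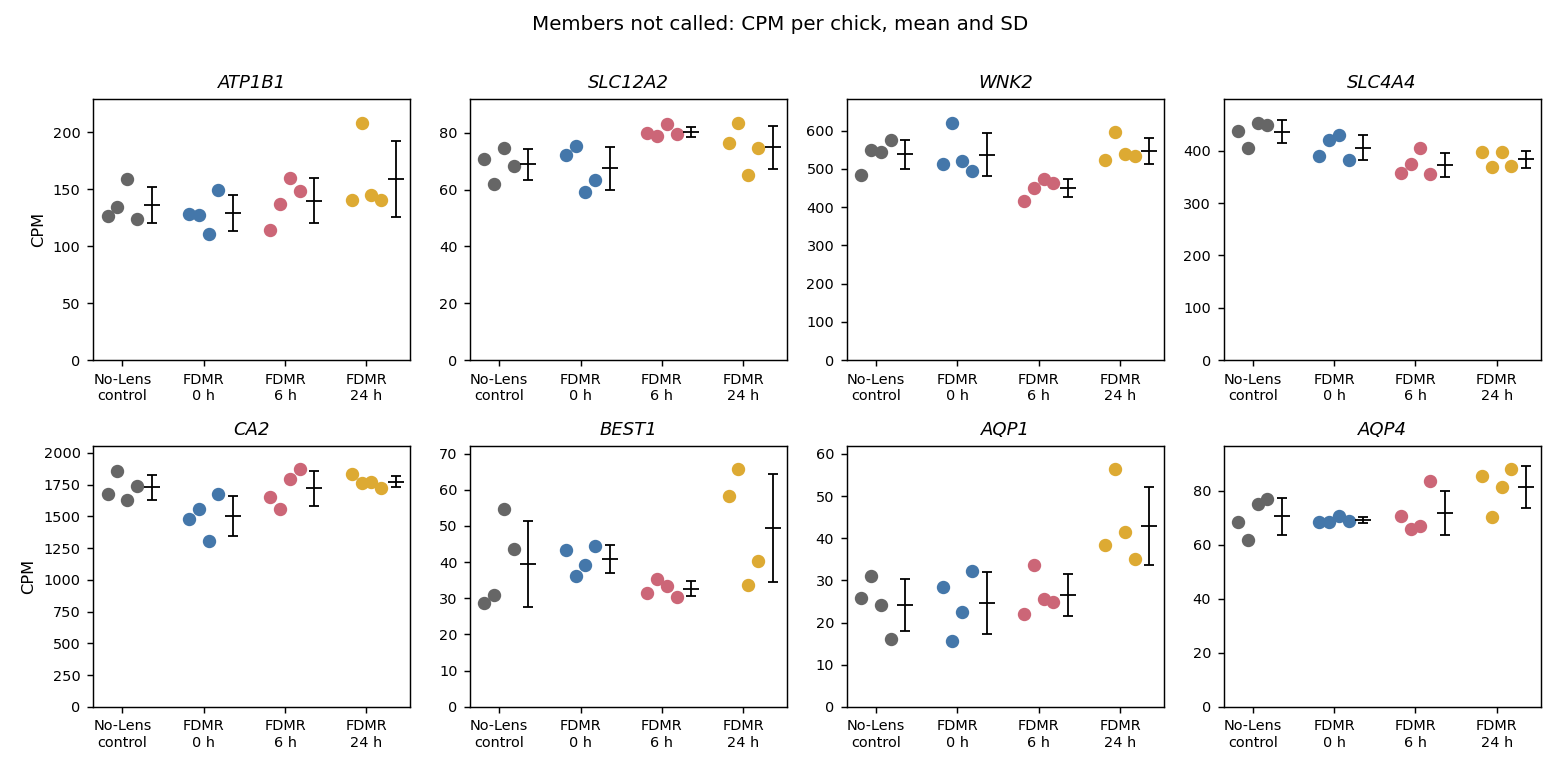
CPM (linear axes from 0) of 8 members not called in any comparison, ATP1B1, SLC12A2, WNK2, SLC4A4, CA2, BEST1, AQP1 and AQP4, in each chick of the 4 groups; black marks give the mean and the SD (n = 4). WNK2 is lowest in all 6 h chicks (418 to 473 CPM), SLC12A2 is tightly placed at 78.7 to 83.0 CPM at 6 h, and AQP1 is highest in all 24 h chicks (35.2 to 56.4 CPM).

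Of the 6 sodium/proton exchangers, which export acid in return for sodium, SLC9A3 was the one called. SLC9A3 (ENSGALG00000012517) is known as NHE3, the apical exchanger of gut and kidney epithelia. It was scarce: the control chicks had 13, 17, 13 and 19 counts, the 0 h chicks 9, 4, 6 and 7, the 6 h chicks 8, 12, 7 and 4, and the 24 h chicks 2, 0, 0 and 1. In CPM these were 3.63 to 4.38 in controls, 1.15 to 2.46 at 0 h, 0.913 to 2.57 at 6 h, and 0.494, 0, 0 and 0.267 at 24 h. The 24 h chicks were below all others, and the controls above all others. In RefSeq (GRCg7b) SLC9A3 partly overlaps LOC112531751, which is not listed in the count table.

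Summed over chicks, SLC9A3 had 62 counts in controls, 26 at 0 h, 31 at 6 h and 3 at 24 h. With depth taken into account the level was 8.29 times as high at 6 h as at 24 h (95% counting interval 2.59 to 42.4), 7.66 times as high at 0 h (2.35 to 39.5) and 18.5 times as high in controls (6.03 to 92.0). These intervals cover counting error only. The fitted log2 differences, which depend on the prior count for so few reads, were -2.88 at 24 h against 6 h, -2.77 against 0 h and -4.02 against the control, with adjusted p of 0.0156, 0.0310 and 0.000686 in edgeR's quasi-likelihood test. At 0 h the level was below the control in every chick as well (log2 -1.25, adjusted p = 0.835 in the same test, with a CPM 2.41 times as high in controls, 95% counting interval 1.5 to 3.97). The count filter, which SLC9A3 passed mainly through the controls, favoured each of these differences from the control. Their ratios, intervals and p-values thus carry no weight as support. For chick 29, the shallowest library, 3 counts correspond to 1.99 CPM, so its 0 does not separate it from the 0 h chicks.

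The SLC9A3 calls at 24 h against 6 h and 0 h were lost when certain single chicks were left out, although the fitted difference stayed between -3.76 and -2.40 against 6 h and between -3.65 and -2.29 against 0 h. Against 6 h the call was lost without 24 h chick 30 or 32 or without 6 h chick 19, with an adjusted p of up to 0.0755, and against 0 h without 24 h chick 29, 30 or 32 or 0 h chick 9, 12 or 13, with an adjusted p of up to 0.116. In libraries thinned to the shallowest depth the difference was -1.75 against 6 h and -1.75 against 0 h, with an adjusted p of 0.404 and 0.625. The other 5 exchangers were not called, and at 24 h against 0 h SLC9A8 of the Golgi differed by -0.10 and SLC9A9 of endosomes by 0.26 on the log2 scale.

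The bicarbonate transporters and carbonic anhydrases formed a group of 17 members, with SLC4A11 the one called. SLC4A11 (ENSGALG00000016017) belongs to the bicarbonate transporter family by sequence, but in human cells it moves protons and is known for its role in the corneal endothelium. It had 24.6, 21.8, 16.5 and 21.2 CPM in controls and 25.1, 18.1, 17.8 and 18.4 CPM at 0 h. The 6 h chicks had 15.9, 9.84, 11.6 and 10.7 CPM, and the 24 h chicks 14.3, 15.2, 18.1 and 12.0 CPM. All 6 h chicks were below all 0 h chicks and all controls, while the 24 h chicks overlapped every other group.

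On the log2 scale SLC4A11 differed by -0.73 ± 0.18 (SE) at 6 h against 0 h (edgeR's quasi-likelihood test, adjusted p = 0.0341) and by -0.82 ± 0.18 against the control (adjusted p = 0.0177). At 24 h it was 0.32 ± 0.19 above 6 h (adjusted p = 0.434 in the same test), so a return was not shown. The call against 0 h was lost without any one of the 0 h chicks 9, 10, 12 and 13 or the 6 h chicks 19, 21 and 23, where the adjusted p reached up to 0.135 and the difference stayed between -0.89 and -0.59. The call against the control was lost without 6 h chick 19, 21 or 23 or control chick 3 or 4, with an adjusted p of up to 0.0789. Without chicks 3, 9 and 26 together SLC4A11 was called against the control only, without chick 23 as well it was called against neither (adjusted p = 0.106 against 0 h and 0.0533 against the control), and with libraries thinned to the shallowest it was called against neither (adjusted p = 0.267 and 0.372).

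CA2, the carbonic anhydrase of Mueller glia, was the most heavily counted member. It averaged 1729 ± 99.3 CPM in controls, 1504 ± 155 CPM at 0 h, 1720.3 ± 139 CPM at 6 h and 1773 ± 44.8 CPM at 24 h (SD, n = 4 each). The 0 h chicks (1479, 1556, 1305 and 1675 CPM) were all below the 24 h chicks, which began at 1726 CPM, and they overlapped the controls. The log2 difference was 0.24 ± 0.08 (SE) at 24 h against 0 h, and its adjusted p of 0.197 in edgeR's quasi-likelihood test missed the threshold.

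SLC4A4 (NBCe1), the sodium-bicarbonate cotransporter of Mueller glia and RPE, was lower in all recovering chicks than in controls by a small step that was not called. It had 358, 374, 405 and 355 CPM at 6 h and 397, 369, 398 and 369.9 CPM at 24 h, against 437, 406, 453 and 449 CPM in controls. Neither group overlapped the controls, and the 0 h chicks (381 to 431 CPM) lay between and overlapped both sides. The log2 difference from the control was -0.23 ± 0.06 (SE) at 6 h and -0.18 ± 0.06 at 24 h, with adjusted p of 0.071 and 0.216 in edgeR's quasi-likelihood test, while DESeq2 gave 0.0117 at 6 h. SLC4A10, the sodium-driven bicarbonate transporter of neurons, differed by 0.02 ± 0.09 at 6 h against 0 h. SLC4A3 and SLC4A5, an anion exchanger and a sodium-bicarbonate cotransporter, differed by 0.05 ± 0.12 and -0.01 ± 0.13 in the same comparison.

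The membrane-bound carbonic anhydrases CA9 and CA14 varied more. CA9, known as a gene induced by hypoxia in mammals, had 32.8, 48.4, 25.9 and 31.2 CPM at 24 h, against 18.1, 20.1, 21.1 and 21.5 CPM at 6 h, without overlap. The log2 difference was 0.73 ± 0.24 (SE), with an adjusted p of 0.14 in edgeR's quasi-likelihood test. The CA9 range in controls, 12.6 to 34.5 CPM, spanned most of the other groups.

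**Figure D3:**
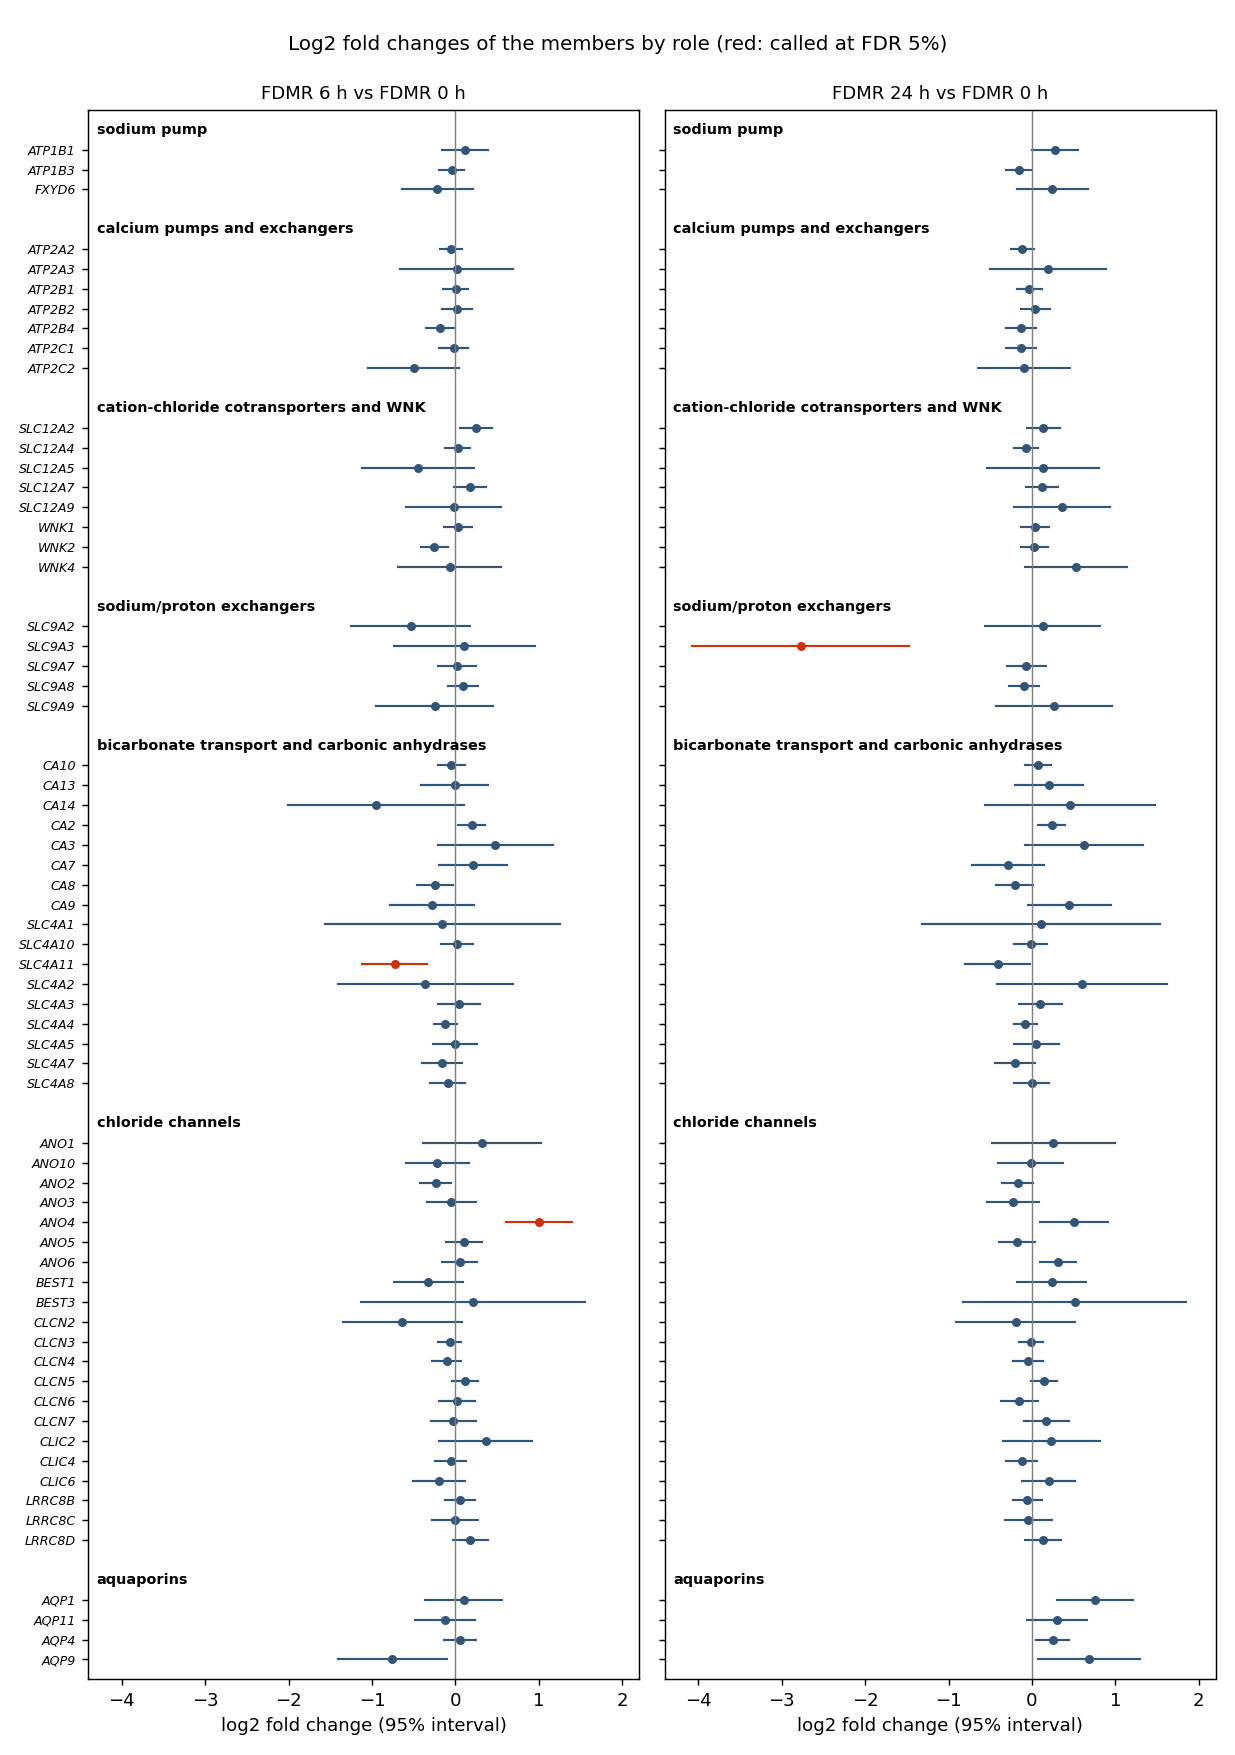
Log2 fold changes (points) with 95% intervals (lines) of 65 members, grouped by role, at FDMR 6 h vs FDMR 0 h (left) and FDMR 24 h vs FDMR 0 h (right); red marks members called at FDR 5% in edgeR's quasi-likelihood test. ANO4 (1.0) and SLC4A11 (-0.73) are called on the left and SLC9A3 (-2.77) on the right, and most other members sit near 0.

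The 21 chloride channels held the clearest single change, that of ANO4 (ENSGALG00000011614). Anoctamins are known as calcium-activated chloride channels and lipid scramblases, and ANO4 itself has been described in mouse as a calcium-dependent cation channel. It had 19.3, 11.7, 10.3 and 12.4 CPM in controls and 12.6, 10.0, 10.6 and 16.1 CPM in 0 h chicks. The 6 h chicks had 25.5, 25.5, 26.5 and 22.6 CPM, and the 24 h chicks 17.8, 14.6, 16.5 and 20.8 CPM. The 6 h chicks were above all other chicks, and the 24 h chicks overlapped both the 0 h chicks and the controls.

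ANO4 averaged 25.0 ± 1.66 CPM at 6 h, against 12.3 ± 2.72 CPM at 0 h (SD, n = 4 each), a log2 difference of 1.0 ± 0.19 (SE; edgeR's quasi-likelihood test, adjusted p = 0.00297). Against the control the difference was 0.89 ± 0.19 (adjusted p = 0.00911 in the same test). Over the log2 CPM of 4 chicks against 4, the two-sided exact permutation p was 0.0286 for both, the smallest this design allows, and 0.2 after Benjamini-Hochberg adjustment over 168 such tests. The calls held without any one chick, with an adjusted p of at most 0.0159 against 0 h and 0.0426 against the control, and in libraries thinned to the shallowest. At 24 h ANO4 was 0.50 below 6 h and 0.50 above 0 h on the log2 scale, with adjusted p of 0.191 and 0.358. In RefSeq (GRCg7b) ANO4 partly overlaps SLC5A8, and its neighbours GAS2L3 and UTP20 differed by 0.17 ± 0.24 and -0.05 ± 0.07 at 6 h against 0 h.

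Of the other 6 anoctamins none was called at 6 h against 0 h, with log2 differences of 0.32 for ANO1, 0.11 for ANO5, 0.05 for ANO6, -0.05 for ANO3, -0.22 for ANO10 and -0.24 for ANO2. ANO2, the calcium-activated chloride channel of photoreceptor terminals in mouse, had 143, 131, 146 and 132 CPM at 6 h, against 175, 175, 146 and 154 CPM at 0 h, a log2 difference of -0.24 ± 0.09 (SE; edgeR's quasi-likelihood test, adjusted p = 0.231). Its control chicks, 126 to 169 CPM, overlapped both. ANO6, a scramblase and channel named here after its values were seen, had 70.8, 84.2, 71.8 and 71.7 CPM at 24 h, above every chick of the other groups, whose highest was 68.2 CPM. The log2 difference of ANO6 at 24 h was 0.31 ± 0.10 against 0 h (adjusted p = 0.219 in the same test).

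Neither BEST1 nor CLCN2, channels with a place in RPE biology, was called in any comparison. BEST1, the bestrophin of the basolateral RPE membrane, had 43.5, 36.2, 39.1 and 44.5 CPM at 0 h, 31.6, 35.3, 33.4 and 30.4 CPM at 6 h and 58.3, 65.6, 33.7 and 40.2 CPM at 24 h, and the 6 h chicks did not overlap the 0 h chicks. Its log2 difference was -0.32 ± 0.20 (SE) at 6 h against 0 h and 0.56 ± 0.20 at 24 h against 6 h, with adjusted p of 0.591 and 0.174 in edgeR's quasi-likelihood test. CLCN2, a voltage-gated chloride channel whose loss damages the retina in mice, had 7.10, 5.77, 5.14 and 6.62 CPM at 6 h, against 7.38, 9.19, 9.20 and 12.4 CPM at 0 h. These did not overlap, but the interval of the log2 difference was -1.35 to 0.08. In RefSeq (GRCg7b) BEST1 partly overlaps FTH1 and CLCN2 partly overlaps HSPB7L, neither of which is listed in the count table.

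CLIC6 differed by 0.39 ± 0.15 (SE, log2) at 24 h against 6 h and CLIC4, another intracellular chloride channel protein, by -0.07 ± 0.09, with adjusted p of 0.203 and 0.764 in edgeR's quasi-likelihood test. CLCN3, a chloride/proton exchanger of endosomes and synaptic vesicles, averaged 464 ± 35.0 CPM in controls, 457 ± 20.7 CPM at 0 h, 435 ± 32.2 CPM at 6 h and 454 ± 19.2 CPM at 24 h (SD, n = 4 each). Of the LRRC8 subunits, which form the volume-regulated anion channel, LRRC8B, LRRC8C and LRRC8D passed the filter and were not called, and LRRC8A was listed with 0 counts in all 16 libraries. The reason for this 0 was not tested, and it does not show that LRRC8A RNA was absent.

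All 4 aquaporins that passed the filter had positive differences at 24 h against each other group, with 1 of them called in 1 comparison. These comparisons share the same 24 h chicks. The median log2 fold change of the aquaporins was 0.54 at 24 h against 6 h, beside -0.02 over all genes, and 0.49 against 0 h, beside 0.00. Of all 67 members, 44 had a positive difference at 24 h against 6 h (median 0.05). Against 0 h 37 were positive (median 0.05), and against the control 37 (median 0.03). Chick 29, the shallowest library, was the highest of the 24 h chicks for AQP1, AQP9 and AQP11 and the lowest for AQP4. AQP9 (ENSGALG00000004261), which passes water, glycerol and small solutes, had 7.82, 4.59, 13.6 and 5.53 CPM in controls and 6.29, 6.03, 10.4 and 9.28 CPM at 0 h. The 6 h chicks had 4.65, 4.71, 3.08 and 6.39 CPM, and the 24 h chicks 11.6, 15.2, 12.4 and 13.1 CPM. The 24 h chicks were above every 6 h and 0 h chick, and 1 control lay among them.

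For AQP9 the log2 difference at 24 h against 6 h was 1.44 ± 0.30 (SE; edgeR's quasi-likelihood test, adjusted p = 0.0158). Against 0 h it was 0.68 ± 0.29 (adjusted p = 0.448), and at 6 h against 0 h -0.76 ± 0.31 (adjusted p = 0.302). The call was lost without 24 h chick 32 or without 6 h chick 18, 19 or 21, where the adjusted p reached up to 0.0647 and the difference stayed between 1.29 and 1.62. In the other alternatives it held, with an adjusted p of at most 0.0169. ALDH1A2, the neighbour of AQP9 in RefSeq (GRCg7b), differed by 0.19 ± 0.15 at 24 h against 6 h and by 1.54 ± 0.16 at 6 h against 0 h.

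AQP1, the water channel of vascular endothelium and many epithelia, had 25.7, 31.0, 24.1 and 16.1 CPM in controls and 28.4, 15.5, 22.4 and 32.2 CPM at 0 h. At 6 h the chicks had 22.0, 33.6, 25.7 and 24.9 CPM, and the 24 h chicks 38.5, 56.4, 41.5 and 35.2 CPM. The 24 h chicks were above all others. The log2 differences of 0.66 against 6 h, 0.75 against 0 h and 0.79 against the control missed the threshold, with adjusted p of 0.14, 0.134 and 0.0878 in edgeR's quasi-likelihood test, whereas DESeq2 called AQP1 against 0 h (adjusted p = 0.0427) and against the control (adjusted p = 0.0248).

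AQP4, the water channel of Mueller glia, had 85.7, 70.3, 81.5 and 88.0 CPM at 24 h, against 68.6, 68.3, 70.7 and 68.7 CPM at 0 h, which overlap at 1 chick each. Its log2 difference was 0.25 ± 0.09 (SE), with an adjusted p of 0.346 in edgeR's quasi-likelihood test. AQP11, an aquaporin of intracellular membranes named here after its values were seen, had 34.3, 45.7, 31.4 and 37.3 CPM at 24 h, against 28.4, 31.0, 34.5 and 24.7 CPM at 0 h, with overlap. The log2 difference was 0.30 ± 0.17 (adjusted p = 0.626 in the same test). AQP3, AQP2, AQP5, AQP7 and AQP12 stayed below the filter, with 78 counts over all libraries for AQP3 and 8 or fewer for each of the others, and AQP8 and AQP10 were listed at 0.

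CA14, SLC12A5, SLC4A2 and FXYD6 followed the main axis of differences between chicks of a group. As deviations from the group means, their correlations with the axis were -0.966, -0.985, -0.967 and -0.93. CA14, a membrane-bound carbonic anhydrase found in mouse in Mueller glia and RPE, had the largest SD within groups of the 67 members, 0.992 on the log2 scale. It had 6.98, 28.5, 56.9 and 59.7 CPM in controls, 26.2, 82.7, 76.2 and 48.9 CPM at 0 h, 19.1, 22.9, 31.3 and 46.8 CPM at 6 h and 23.9, 125, 85.6 and 94.3 CPM at 24 h. The lowest value of the control, 0 h and 24 h groups was that of chick 3, 9 or 26. In RefSeq (GRCg7b) the clock gene CIART lies inside CA14, and without knowledge of the strand option the reads of the pair cannot be told apart.

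SLC12A5 (KCC2), the neuronal cotransporter that extrudes chloride and so sets the sign of GABA and glycine responses, had 52.5, 114, 159 and 193 CPM in controls, 100.0, 219.9, 219.7 and 149 CPM at 0 h, 108, 103, 108 and 182 CPM at 6 h and 109, 223, 214 and 211 CPM at 24 h. Chicks 3, 9 and 26 were again the lowest of their groups, and 6 h chick 23 the highest of its group. SLC4A2, a chloride/bicarbonate exchanger, had 4.20, 15.9, 11.9 and 12.3 CPM at 24 h, against 2.94, 4.28, 4.11 and 10.3 CPM at 6 h. FXYD6 had 46.4, 75.6, 76.4 and 73.8 CPM at 24 h, against 44.8, 43.0, 40.3 and 67.8 CPM at 6 h. With all chicks, none of SLC12A5, SLC4A2, FXYD6 and CA14 was called in any comparison.

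**Figure D4:**
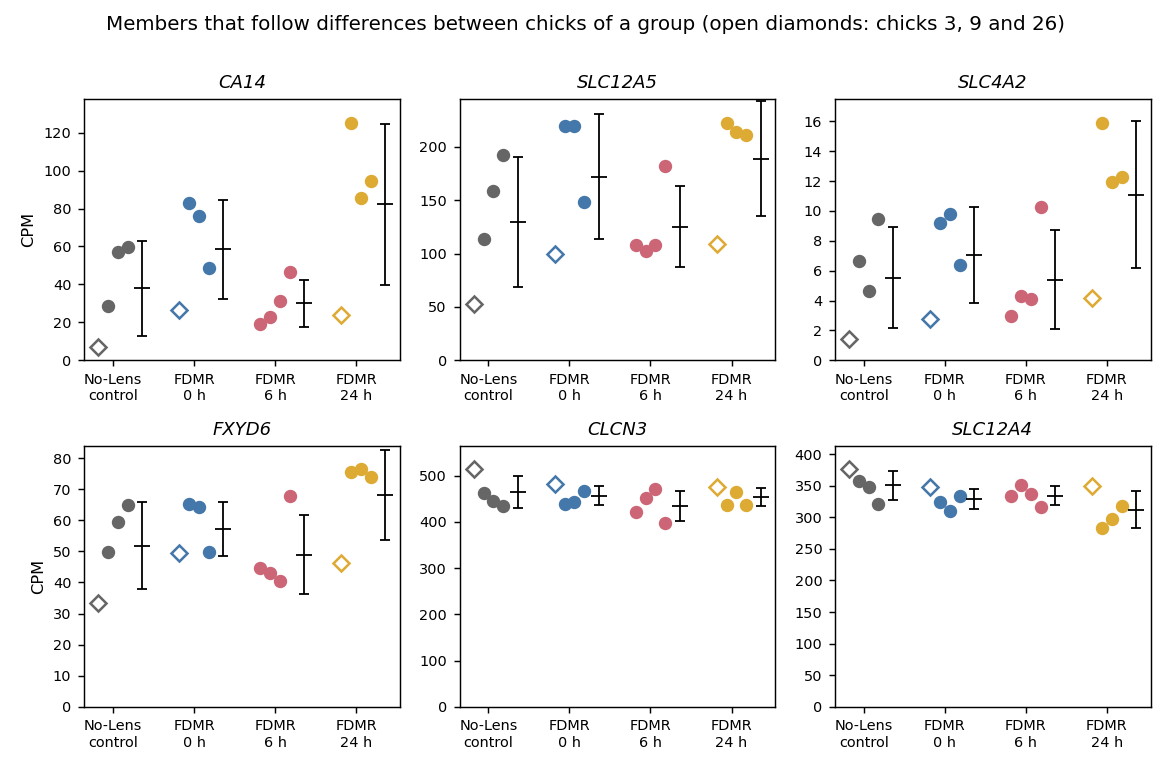
CPM (linear axes from 0) of CA14, SLC12A5, SLC4A2, FXYD6, CLCN3 and SLC12A4 in each chick of the 4 groups; open diamonds are control chick 3, 0 h chick 9 and 24 h chick 26, and black marks give the mean and the SD (n = 4). CA14 is lowest in the marked chick of each group (6.98, 26.2 and 23.9 CPM), while CLCN3 is highest there (514, 482 and 475 CPM).

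In all, 11 of 67 members were lowest of their group in each of chicks 3, 9 and 26 (16.4%, beside 12.5% of all genes tested): ATP2B2, CA13, CA14, CLCN2, CLCN7, FXYD6, SLC12A5, SLC12A9, SLC4A2, WNK1 and WNK4. Highest in each were 6 members (8.96%, beside 7.73% of all genes), among them ANO2, ATP2C1, CLCN3, CLCN4 and SLC12A4. Across the 16 chicks, as deviations from the group means, 7 members (10.4%) had a correlation with the axis below -0.8, beside 9.74% of all genes, with SLC12A5 at -0.985. The axis was drawn from the same libraries, so this is a description.

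Without chicks 3, 9 and 26, a choice made after seeing the data, 0 members were called at 0 h against the control (beside 0.00882% of all genes in that fit), and at 24 h against 6 h 10 of 67 members were called (14.9%, beside 9.19% of all genes in that fit). These were AQP9 and SLC9A3 with ANO5, CA14, CA9, FXYD6, SLC12A5, SLC4A2, WNK2 and WNK4. CA14 then differed by 1.73 ± 0.27 (SE, log2; edgeR's quasi-likelihood test, adjusted p = 0.00113), SLC12A5 by 0.78 ± 0.19 (adjusted p = 0.0156) and FXYD6 by 0.62 ± 0.16 (adjusted p = 0.0188). Leaving these chicks out also moves the groups along the axis, to a mean weight of -0.127 for the remaining 24 h chicks, against 7.5e-06 for the 6 h chicks, which lose none. The chicks were picked on the axis that members such as CA14, SLC12A5, SLC4A2 and FXYD6 follow, which narrows their spread within groups. The SEs, p-values and calls of such members in that fit thus carry no weight as support. CA14 was also called at 6 h against 0 h in that fit, at -1.19 ± 0.27 (adjusted p = 0.0141), where ANO4 was the other of 2 members called (2.99%, beside 4.58%). Called were also 0 members at 24 h against 0 h (beside 1.03%), 2 at 24 h against the control (2.99%, beside 1.46%), 3 at 6 h against the control (4.48%, beside 2.80%) and 7 in the joint test (10.4%, beside 8.90%).

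With chick 23 left out as well, so that each group lost its farthest chick, 9 members were called at 24 h against 6 h (13.4%, beside 14.2% of all genes), the same as before without WNK4. At 6 h against 0 h 6 were called (8.96%, beside 9.26%), which were ANO4, CA14, FXYD6, SLC12A5, SLC4A2 and WNK2. CA14 differed by 2.03 ± 0.25 (SE, log2) at 24 h against 6 h and by -1.49 ± 0.25 at 6 h against 0 h, with adjusted p of 4.2e-05 and 0.00107 in edgeR's quasi-likelihood test. Called were also 0 members at 0 h against the control (beside 0.00882%), 1 at 24 h against 0 h (1.49%, beside 1.54%), 4 at 6 h against the control (5.97%, beside 4.74%), 4 at 24 h against the control (5.97%, beside 3.25%) and 9 in the joint test (13.4%, beside 14.2%). This choice, also made after seeing the data, leaves the 6 h chicks at axis weights of 0.0952 to 0.101, above all remaining chicks of the other groups. Here too the chicks were picked on the axis. The SEs, p-values and calls of members that follow it, such as CA14, again carry no weight as support.

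Genes that work beside these transporters but lie outside the name families were counted from a list of 43 genes, of which 33 entries of the table were tested. The list held regulators, potassium channels, lactate carriers, sodium/calcium-potassium exchangers, SLC26 anion exchangers and chloride channel genes. None of the tested SLC26 and chloride channel genes was called in any comparison. At 6 h against 0 h 2 rose and 4 fell (18.2% of 33, beside 3.19% of all genes). The list was chosen with earlier results of these data known, so this share is a description and no test of the set. KCNJ13 (Kir7.1), the apical potassium channel of the RPE that works in tandem with the sodium pump, averaged 51.5 ± 3.36 CPM at 6 h, against 22.7 ± 2.17 CPM at 0 h (SD, n = 4 each), a log2 difference of 1.18 ± 0.10 (SE; edgeR's quasi-likelihood test, adjusted p = 5.7e-07), and it was still higher at 24 h, by 0.90 ± 0.10 (adjusted p = 9.3e-05). SLC24A1, the exchanger of rods, rose by 1.15 ± 0.19, and SLC24A2, that of cones, fell by 0.43 ± 0.07. SLC24A4, a further member of the family, fell at 6 h to 319 ± 23.8 CPM, against 651 ± 32.5 CPM at 0 h, and rose by 0.66 ± 0.10 at 24 h against 6 h. SGK1, a kinase that raises the activity of many ion transporters, fell by 0.29 ± 0.07, and one of the entries for the lactate carrier SLC16A3 (ENSGALG00000012288) by 0.35 ± 0.09. The other SLC16A3 entry (ENSGALG00000002728) was 0.21 ± 0.06 higher at 6 h against 0 h (adjusted p = 0.0625 in edgeR's quasi-likelihood test, not called) and fell by 0.27 ± 0.06 at 24 h against 6 h (adjusted p = 0.0253). The 6 calls at 6 h against 0 h had adjusted p of at most 0.0382 in edgeR's quasi-likelihood test. At 0 h against the control 0 of these 33 were called (beside 0.0265% of all genes).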

How the data were processed

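The deposited values were raw counts of reads per gene for each library. Per the labels and the study's methods, the authors checked and trimmed reads with FastQC, CutAdapt and Trimmomatic, aligned them to the chicken genome build GalGal4 with TopHat2 and Bowtie2, and counted them with htseq-count. Tool versions, the annotation release and the strand option are not given in the sources used here. The 6 lines that name no gene held 41.9% to 45.9% of counts per library and were left out, which left 1553717 to 4816425 counts on genes (median 4016147).

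A gene was tested where 4 or more libraries held 10 or more of its counts. One model over all 4 groups was fitted with edgeR 4.0.16 (R 4.3.3, limma 3.58.1) on TMM-scaled counts by the quasi-likelihood test, without covariates, and p-values were adjusted by Benjamini-Hochberg over all 11334 genes. A gene was called at an FDR of 5%. The common dispersion was 0.0157. CPM uses the TMM-scaled library size, log2 CPM a prior count of 2, and standard errors were the fold change over the root of F. Each replicate is a separate chick. Values of single genes were also tested with an exact permutation test over chicks (scipy 1.17.1, Python 3.11.15, pandas 2.3.3), and figures were drawn with matplotlib 3.10.9.

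Named members were those called, a list of members with a known role in retina or RPE, and the extremes of each role. Results of 2 members that count in the totals are not reported here singly. Members and lists were chosen with earlier results of these data known. Alternatives were DESeq2 1.42.0, limma-voom, edgeR's likelihood ratio test, RLE scaling, no filter, a filter at 1 CPM in 4 libraries, fits of the compared groups alone, counts thinned to the shallowest library, and leaving out each chick. The steps were tested on simulated data. Counting intervals cover counting error only. Gene neighbours and overlaps came from RefSeq on GRCg7b, for names only. There, 18 of the 67 members overlapped a coding gene, among them SLC12A5, which partly overlaps NCOA5. The effect of these overlaps on the counts was not tested.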

Additional observations from a re-analysis of the deposited data

Results flagged for a closer look

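In each group of 4 chicks the highest or lowest CPM of a named member was compared with the other 3 by Dixon's criterion for its gap to the nearest of them. Of 108 such groups 9 held a chick this far from the others. Chance gives about 1 in 20 for independent groups of normally spread values. These groups share the same chicks, and members such as FXYD6 and SLC12A5 move together, so the count cannot be judged against that rate. In FDMR 24 h chick 26, FXYD6 was low at 46.4 CPM (others 73.8 to 76.4) and SLC12A5 low at 109 CPM (211 to 223). In FDMR 6 h chick 23, FXYD6 was high at 67.8 CPM (40.3 to 44.8) and SLC12A5 high at 182 CPM (103 to 108). In FDMR 0 h chick 9, SLC4A11 was high at 25.1 CPM (17.8 to 18.4) and SLC4A5 low at 139 CPM (179 to 181). In FDMR 24 h chick 29, the shallowest library, ATP1B1 reached 208 CPM (140.5 to 145) and SLC4A5 223 CPM (162 to 164). AQP4 stood at 70.7 CPM in FDMR 0 h chick 12, beside 68.3 to 68.7 CPM in the others, a small step in a tight group.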

How the results depend on the processing

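No member reversed direction among the calls listed in the report under any alternative, and 0 members were called at FDMR 0 h against the control in each. Of members called at 6 h against 0 h (2), 1 remained with only the compared groups and 1 after thinning, ANO4 in both, and the count was 3 with DESeq2 (WNK2 added) and 6 without the farthest chick of each group (3, 9, 23 and 26). At 24 h against 6 h (2), the count was 1 with only the compared groups, 1 after thinning, 3 with DESeq2 and with the likelihood ratio test (WNK2 added), 10 without chicks 3, 9 and 26 and 9 without the 4 farthest. Both sets were left out after seeing the data, on an axis drawn from the same libraries. Calls gained in these fits by members that follow the axis carry no weight as support. At 24 h against 0 h (1), it was 2 with the likelihood ratio test, 0 with only the compared groups and 0 without the 3 chicks; DESeq2 and thinning called AQP1 in place of SLC9A3. At 6 h against the control (2), it was 4 with DESeq2, 5 with the likelihood ratio test, 1 after thinning and 4 without the farthest chicks. At 24 h against the control (1), it was 2 with DESeq2, 2 with the likelihood ratio test, 2 without the 3 chicks and 4 without the farthest. In the joint test (3), it was 7 with DESeq2, 6 with the likelihood ratio test, 7 without the 3 chicks and 9 without the farthest. Leaving out each chick gave 0 to 0 members at 0 h against the control, 1 to 2 at 6 h against 0 h, 0 to 4 at 24 h against 6 h, 0 to 1 at 24 h against 0 h, 1 to 3 at 6 h against the control, 1 to 2 at 24 h against the control and 1 to 4 in the joint test. The cause was not tested, except that fits of the compared groups hold fewer chicks and thinning fewer counts. For the fold changes of called members, 68 values under other alternatives kept the call and 12 lost it, and leaving out a chick kept 103 and lost 25. Members with few counts, such as SLC9A3, are limited by depth.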
